A study of Juglans regia with 15 samples.

Results

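Expression of 5 genes annotated to flavonoid synthesis was followed in developing walnut endopleura, the thin brown skin around the kernel. The genes were chosen by identifier and annotation, with earlier results of these data known, and no threshold on their values was used: chalcone synthase JreChr02G10304, the leucoanthocyanidin dioxygenase gene JrLDOX JreChr03G12442 with its neighbour JreChr03G12444, and the flavonol synthase-like gene JreChr13G10907 with its neighbour JreChr13G10908. They are 5 of the 39414 genes in the expression table. RNA-seq libraries came from the common walnut (Juglans regia) cultivar ‘Linzaoxiang’. The stages were 35, 63, 91, 119 and 147 days counted from pollination (DAP). Each had 3 libraries, each made from the endopleura of 7 pooled nuts, so that no library shows a single nut. All libraries share 1 cultivar and 1 site, and no untreated or mutant group exists: the only labelled variable is developmental stage. The level of embryo storage transcripts also differed between libraries, as described below. Values are FPKM, fragments scaled by gene length and by the number of mapped fragments, a scale that allows levels of different genes to be set side by side.

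Flavonoid synthesis starts with chalcone synthase, which joins coumaroyl-CoA and malonyl-CoA into a chalcone and feeds every branch of the pathway. Dihydroflavonol reductase (DFR) and leucoanthocyanidin dioxygenase (LDOX, also called anthocyanidin synthase) carry the pigment branch to anthocyanidins, which anthocyanidin reductase (ANR) turns into the flavan-3-ols that build condensed tannins. Flavonol synthase draws dihydroflavonols into flavonols instead. Seed coats of many plants are rich in condensed tannins, and in Arabidopsis loss of chalcone synthase or of ANR changes seed coat colour.

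The annotation of the 5 genes was not equally specific. The supplementary annotation of the study lists the Arabidopsis chalcone synthase gene tt4 as the homolog of JreChr02G10304. For both LDOX-annotated genes the listed homolog is AT1G49390, a member of the large iron- and oxoglutarate-dependent dioxygenase family that is not the Arabidopsis LDOX gene. Both flavonol synthase-like genes are annotated as flavonol synthase/flavanone 3-hydroxylase, so the label covers 2 enzymes of the pathway. Their listed homolog is AT3G13610, a member of the same family known in Arabidopsis as a feruloyl-CoA hydroxylase of coumarin synthesis. The names JrLDOX and flavonol synthase-like are therefore used below as annotation labels, and the enzyme activity of these genes was not tested. The genes lie on chromosomes 2, 3 and 13 of the walnut genome used by the authors: JreChr02G10304 at chr2:15646385-15648212, JreChr03G12442 at chr3:40943300-40948111, JreChr03G12444 at chr3:40961854-40963534, JreChr13G10907 at chr13:23757745-23759556 and JreChr13G10908 at chr13:23760859-23763726. The study placed the chromosome 3 genes in a region associated with altitude and the chromosome 13 genes in a region associated with temperature. It also reported positive selection on JrLDOX in walnuts from Tibet. Those results concern DNA variation among trees and were not examined here.

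The tissue label was checked first. JrANR (JreChr09G12363), taken as the seed coat marker, which the study calls the ANR homolog and its annotation table a leucoanthocyanidin reductase, was at or above 71.0 FPKM in all 15 libraries. The study also describes expression of this gene in the embryo, so its presence does not separate endopleura from embryo. Embryo storage transcripts were present as well. The summed FPKM of 4 embryo storage genes (2 glutelin genes, an oleosin and JrFAD2) lay between 6.18 and 23.4 at 35 DAP. It lay between 1708 and 19888 in the 12 later libraries, with the highest sum in replicate 2 of 119 DAP. The embryo storage score used below is the mean log2(FPKM + 1) of these 4 genes. They did not move together: from 119 to 147 DAP 3 fell in the limma test described below. The mean of the oleosin gene was 581 FPKM at 119 DAP and 1050 at 147 DAP (adjusted p = 0.0644). The sum and the score are therefore no plain measure of embryo share. The green tissue genes went in different directions between 35 and 147 DAP. The mean of the chlorophyll-binding protein gene JreChr04G11926 went from 26.7 to 57.1 FPKM and that of JreChr10G10089 from 6.08 to 2.06. The Rubisco small chain gene JreChr15G10361 was at most 0.801 FPKM. Libraries of the same stage correlated at 0.964 to 0.992 across genes. Relative depth, read from the ratios of values under 0.1 FPKM, ranged from 0.860 to 1.16 times the median library. In bulk tissue, fewer cells of a type and less RNA per cell cannot be told apart, which holds for every level below.

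Chalcone synthase and the flavonol synthase-like gene JreChr13G10907 changed over the stages, and JrLDOX did not pass the test. A gene was tested when at least 3 libraries reached 1 FPKM, which 22310 genes did, among them 3 of the 5 genes described here. JreChr03G12444 and JreChr13G10908 were too low and were left out of the tests. In the limma F test over the 5 stages on log2(FPKM + 1), the p-value adjusted over all tested genes was 1.5e-06 for JreChr02G10304, 0.000177 for JreChr13G10907 and 0.125 for JreChr03G12442. The share of all tested genes called by this F test was 81.2%, so that 2 calls among 3 tested genes are no more than the background.

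**Figure D1:**
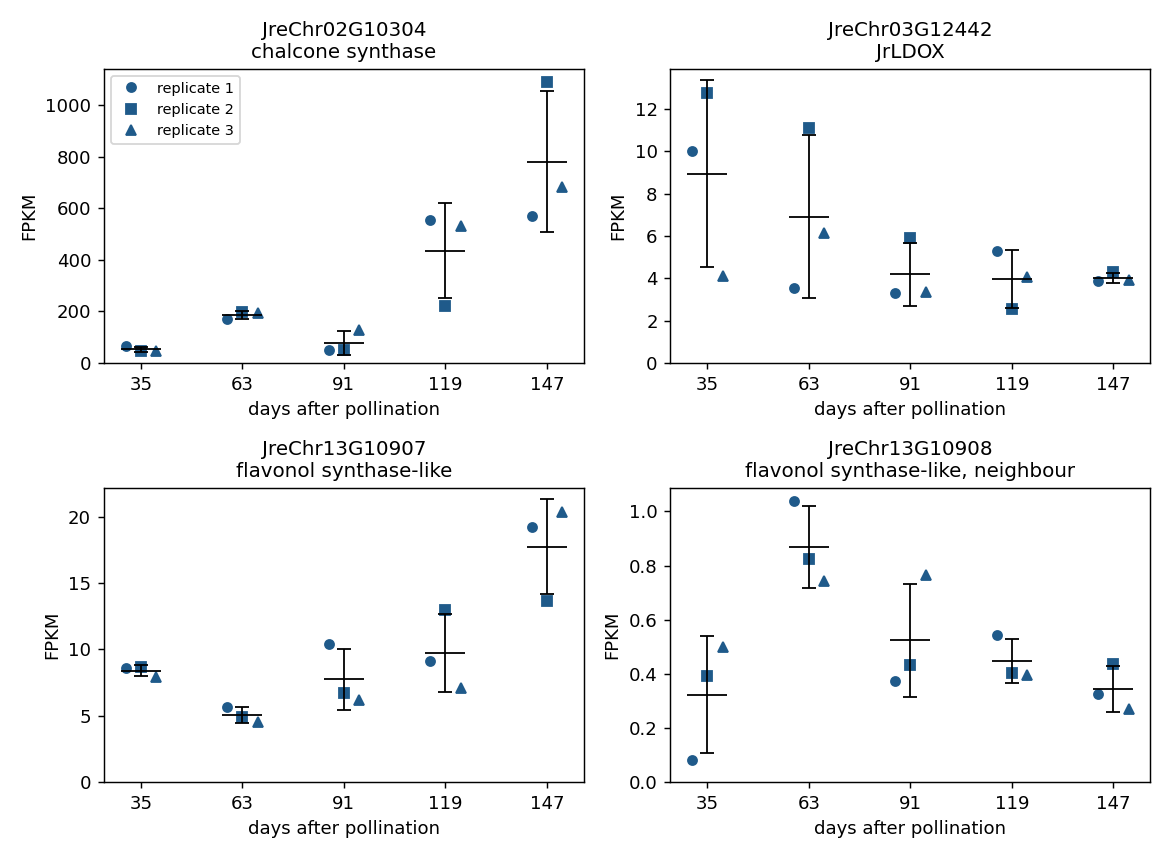
FPKM of 4 genes (y axis, linear from 0, a different range in each panel) at each stage (x axis, days after pollination); points are the 3 libraries, horizontal bars the mean and whiskers ± SD. Chalcone synthase reached 571 to 1088 at 147 DAP against 47.8 to 63.9 at 35 DAP, while JrLDOX stayed between 2.53 and 12.8 throughout; JreChr03G12444, at 0 in 12 libraries, is not drawn.

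Chalcone synthase was by far the most abundant of the 5 transcripts and rose in 2 waves. The 3 libraries of JreChr02G10304 read 63.9, 48.2 and 47.8 FPKM at 35 DAP and 169, 196 and 195 at 63 DAP. At 91 DAP they read 49.4, 52.3 and 129, so that replicates 1 and 2 were back at the level of 35 DAP and replicate 3 was not. Values of 553, 223 and 529 followed at 119 DAP and 571, 1088 and 683 at 147 DAP. The 35, 63, 119 and 147 DAP groups did not overlap with each other, and the 91 DAP group overlapped only with that of 35 DAP. By its mean, the gene ranked 3227th of 39414 at 35 DAP and 108th at 147 DAP.

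Every step of this course but the last passed the limma test of stage pairs, in which p-values are adjusted over all tested genes. Chalcone synthase rose by 1.80 ± 0.38 (log2, SE, n = 3 per stage) from 35 to 63 DAP with an adjusted p of 0.00134, where 46.7% of all tested genes were called in either direction. It then fell by 1.41 to 91 DAP (adjusted p = 0.0134, 26.5% of genes called). The step to 119 DAP was a rise of 2.52 (adjusted p = 0.000515, 18.3% called). From 119 to 147 DAP the difference was 0.90 with an adjusted p of 0.0799, short of the threshold of 0.05, in a comparison that called 35.9% of genes. From 35 to 147 DAP the mean went from 53.3 ± 9.18 to 781 ± 272 FPKM (SD, n = 3), a 14.6-fold difference and a log2 change of 3.80 with a 95% interval of 2.99 to 4.62 (adjusted p = 5.59e-07).

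In order of level the stages stood 147, 119, 63, 91 and 35 DAP. Among neighbours in this order, 91 and 35 DAP overlapped and did not pass the test (0.39, 95% interval -0.43 to 1.20, adjusted p = 0.397). The libraries of 147 and 119 DAP did not overlap, with a 95% interval of 0.08 to 1.71, but missed the adjusted threshold. The pair 119 and 63 DAP passed narrowly (1.11, adjusted p = 0.0375, with 32.3% of all tested genes called) and missed the threshold when any library of 63 DAP, or replicate 1 or 3 of 119 DAP, was left out (adjusted p up to 0.139). Without replicate 3 of 91 DAP the difference from 119 to 147 DAP passed (adjusted p = 0.0331). Without replicate 1 or replicate 2 of 91 DAP the fall from 63 to 91 DAP missed the threshold (adjusted p = 0.0616 and 0.0639). Replicate 2 of 119 DAP, with the lowest chalcone synthase value of its stage, had the highest embryo storage sum of all libraries, 19888 FPKM against 6310 and 3495 in replicates 1 and 3, and with the embryo storage score as a covariate the step from 119 to 147 DAP was 0.14 (adjusted p = 0.896). At 91 DAP the high replicate 3 had an embryo sum of 7094, between those of replicates 1 (9975) and 2 (4970).

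JrLDOX stayed low and scattered. JreChr03G12442 read 10.001, 12.8 and 4.11 FPKM at 35 DAP, 3.52, 11.1 and 6.15 at 63 DAP, and 3.30, 5.92 and 3.37 at 91 DAP. It read 5.30, 2.53 and 4.08 at 119 DAP and 3.87, 4.28 and 3.90 at 147 DAP. The libraries of every pair of stages overlapped, and the coefficient of variation within a stage fell between 5.72% at 147 DAP and 55.5% at 63 DAP. Stage means stood in the order 35, 63, 91, 147 and 119 DAP, from 8.95 ± 4.42 to 3.97 ± 1.39 FPKM (SD, n = 3), and no pair of stages passed the limma test. Nearest to the threshold was 35 against 119 DAP (-0.92, adjusted p = 0.0501). Of 25 alternative settings, 19 left the call of this pair unchanged, and 20 left that of 35 against 91 or 147 DAP unchanged. The difference from 35 to 147 DAP was -0.87 ± 0.38 (log2, SE), with a 95% interval of -1.69 to -0.05 and an adjusted p of 0.0575, in a comparison that called 43.7% of all tested genes lower.

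This difference turned on the library chosen. Replicate 3 of 35 DAP, at 4.11 FPKM, lay among the later stages, and without it the change from 35 to 147 DAP was -1.29 with an adjusted p of 0.00686 and the F test over the stages passed (adjusted p = 0.0189). JrLDOX also passed the F test without replicate 1 of 63 DAP (adjusted p = 0.0471). The median change of all tested genes from 35 to 147 DAP was -0.27, in the same direction. With the embryo storage score as a covariate the JrLDOX difference was 0.10 ± 1.53 (log2, SE, adjusted p = 0.972). Because the score is low only at 35 DAP, it can hardly be separated from that stage, and this fit decides nothing about the difference.

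The neighbour JreChr03G12444, which carries the same annotation and the same 2 dioxygenase domains, was at or close to 0 FPKM. It was listed at 0 in 12 libraries, at 0.0633 and 0.0370 FPKM in replicates 1 and 3 of 35 DAP and at 0.0228 in replicate 2 of 147 DAP. In the 3 libraries where both genes were above 0, JrLDOX stood 111 to 188 times higher. The pair is separated by 13742 bases, and 1 short gene lies between, JreChr03G12443, annotated as a glutamate synthase fragment, with stage means of 3.34 FPKM at 35 DAP and 0.922 at 147 DAP. On the far side of JreChr03G12444 lies JreChr03G12446, annotated as a 40S ribosomal protein gene, whose libraries ranged from 0.152 to 1.35 FPKM. JreChr03G12441, on the other side of JrLDOX, was listed at 0 in all 15 libraries.

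JreChr13G10907 dipped at 63 DAP and was highest at 147 DAP. It read 8.57, 8.70 and 7.93 FPKM at 35 DAP, 5.69, 4.90 and 4.54 at 63 DAP, and 10.4, 6.68 and 6.18 at 91 DAP. It read 9.16, 12.9 and 7.11 at 119 DAP and 19.2, 13.6 and 20.4 at 147 DAP. Every library of 63 DAP lay below every library of the other stages, and every library of 147 DAP lay above all others.

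In the limma test the level fell by 0.64 ± 0.22 (log2, SE) from 35 to 63 DAP, with an adjusted p of 0.0273. That call missed the threshold when any library of 35 DAP, or replicate 2 or 3 of 63 DAP, was left out, at adjusted p-values of 0.0503 to 0.082. The steps to 91 DAP (0.51, adjusted p = 0.107) and to 119 DAP (0.29, adjusted p = 0.406) did not pass, and the step from 119 to 147 DAP was a rise of 0.82 (adjusted p = 0.0099). From 35 to 147 DAP the mean rose from 8.40 ± 0.41 to 17.7 ± 3.59 FPKM (SD, n = 3), 2.11-fold, or 0.98 with a 95% interval of 0.50 to 1.45 (adjusted p = 0.0012). With the embryo storage score as a covariate this change was -0.59 ± 0.76 (log2, SE) and did not pass (adjusted p = 0.623). That score is low only at 35 DAP and nearly coincides with that stage, so this fit cannot decide whether the rise remains. With chalcone synthase, 2 of the 3 tested genes were higher at 147 than at 35 DAP, where 24% of all tested genes were called higher and 67.7% in either direction. The order of stages was 147, 119, 35, 91 and 63 DAP. Of the neighbours in that order only 147 and 119 DAP passed the adjusted threshold. The libraries of 91 and 63 DAP did not overlap either but missed it, with a 95% interval of 0.04 to 0.98.

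JreChr13G10908 begins 1302 bases after JreChr13G10907 and had its highest mean at 63 DAP, where the mean of the first gene was lowest. Its libraries read 0.0805, 0.392 and 0.498 FPKM at 35 DAP and 1.04, 0.823 and 0.744 at 63 DAP, the only stage with a library above 1. They read 0.373, 0.434 and 0.763 at 91 DAP, 0.542, 0.404 and 0.397 at 119 DAP, and 0.325, 0.436 and 0.269 at 147 DAP. The mean of 63 DAP was 2.53 times that of 147 DAP, and the groups did not overlap. The groups of 63 and 91 DAP did overlap. An exact permutation test over all 1401400 divisions of the 15 libraries into 5 stages gave an unadjusted p = 0.0186 for the F statistic. The test was run for this gene after its values had been seen, so the p-value is a description only. JreChr13G10907 stood 5.48 to 107 times above it across the libraries. The next gene on each side, JreChr13G10906 (an aminotransferase) and JreChr13G10909 (a nucleotidyl transferase), ranged from 11.5 to 17.4 and from 28.3 to 62.6 FPKM, both above JreChr13G10908 in every library.

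Next, the entry enzyme was set against genes labelled as later steps within each library. The measure was the difference of log2(FPKM + 1) between chalcone synthase and JrLDOX, JreChr13G10907 or JrANR. For JrLDOX and JreChr13G10907 the step is an annotation label only, since the listed homologs are other members of the dioxygenase family. The margin of chalcone synthase over JrLDOX widened. Its transcript was 6.39, 3.78 and 11.7 times that of JrLDOX at 35 DAP, 48.0, 17.7 and 31.6 times at 63 DAP, and 14.9, 8.83 and 38.4 times at 91 DAP. It was 104, 88.0 and 130 times at 119 DAP and 147, 254 and 175 times at 147 DAP. The libraries of 147 DAP lay above all others and those of 119 DAP above all earlier ones. On the log2 scale the mean difference went from 2.55 ± 0.71 to 7.23 ± 0.42 (SD, n = 3), a widening of 4.68. Most of it was the rise of chalcone synthase itself (3.80), with -0.87 for JrLDOX, which was not called. In the exact permutation test over all divisions of the libraries the stages differed, with p = 7.35e-05 and 0.00022 after adjustment over the 3 differences. This test largely repeats the change of chalcone synthase tested above and is no separate evidence.

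Against JreChr13G10907 the margin of chalcone synthase was narrow at 35 and 91 DAP and wider at the other stages. The ratio of FPKM was 5.54 to 7.46 at 35 DAP and 4.75 to 20.9 at 91 DAP. It was 29.7 to 42.8 in the libraries of 63 DAP, 17.2 to 74.5 in those of 119 DAP and 29.7 to 79.8 in those of 147 DAP. In order of age, the mean log2 difference was 2.52 ± 0.22, 4.96 ± 0.25, 3.04 ± 1.04, 5.27 ± 1.10 and 5.35 ± 0.76 (SD, n = 3). The exact permutation test gave p = 0.00478 (adjusted p = 0.00718). The widening from 35 to 147 DAP was 2.83, from changes of 3.80 in chalcone synthase and 0.98 in JreChr13G10907. This test too largely repeats the change of chalcone synthase.

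**Figure D2:**
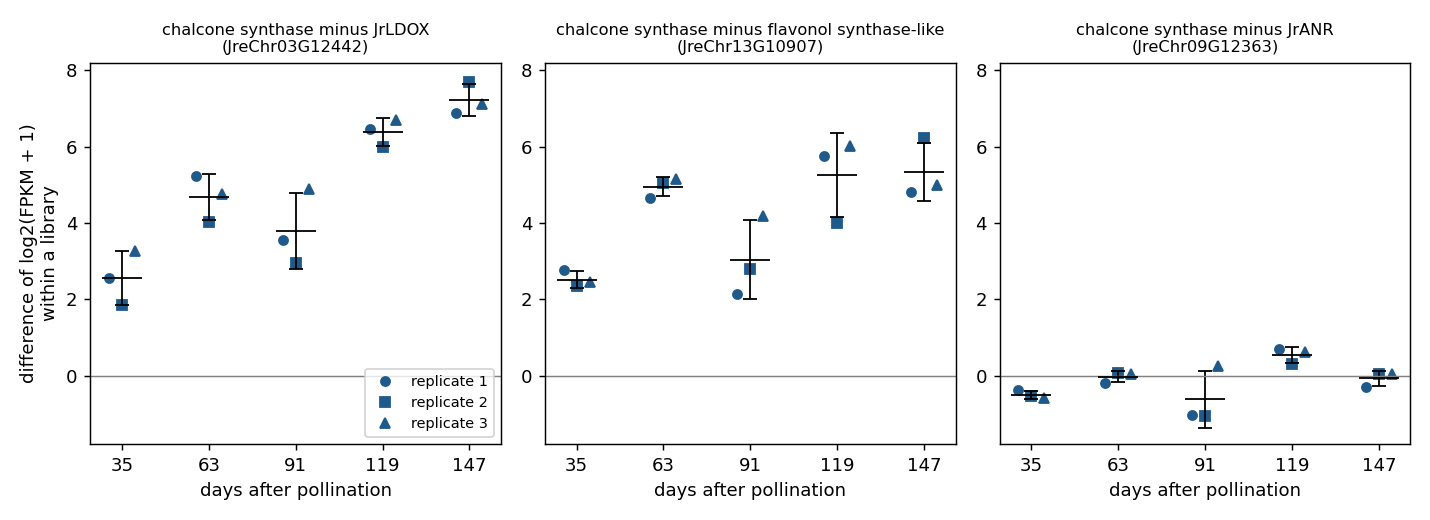
Difference of log2(FPKM + 1) between chalcone synthase and a gene labelled as a later step, within each library (y axis, same scale in the 3 panels), by stage (x axis, days after pollination). Points are libraries, bars the mean and whiskers ± SD of 3. The difference to JrLDOX reached 7.23 at 147 DAP, whereas that to JrANR stayed between -1.06 and 0.69.

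JrANR, the last enzyme before the tannin building blocks, kept close to chalcone synthase in level. The ratio of chalcone synthase to JreChr09G12363 was 0.658 to 0.766 at 35 DAP, 0.873 to 1.05 at 63 DAP and 1.23 to 1.62 at 119 DAP, and it was 0.808 to 1.03 at 147 DAP. At 91 DAP replicates 1 and 2 read 0.480 and 0.474 and replicate 3 read 1.18. The change of the log2 difference from 35 to 147 DAP was 0.43, against 4.68 for JrLDOX. The stages still differed in the exact permutation test (p = 0.0234, adjusted p = 0.0234), a call that missed the threshold without replicate 1 (adjusted p = 0.0768) or replicate 3 (adjusted p = 0.0704) of 119 DAP. Between 35 and 147 DAP alone, the exact two-sided test of 3 libraries against 3 gave p = 0.1 for each of the 3 differences, the smallest value that this design allows.

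Deviations from the stage mean were then compared between genes, library by library. Of the 15 libraries, 11 deviated in the same direction for chalcone synthase and JrANR, 11 for chalcone synthase and JrLDOX, and 3 for chalcone synthase and JreChr13G10907. The correlation of the deviations with those of chalcone synthase was 0.756 for JrANR, only 0.231 for JrLDOX and -0.769 for JreChr13G10907. In replicate 2 of 119 DAP chalcone synthase deviated by -0.85 on the log2 scale, JrANR by -0.61, JrLDOX by -0.45 and JreChr13G10907 by 0.41. In replicate 2 of 147 DAP the deviations were 0.53, 0.42, 0.08 and -0.34 in the same order of genes. In replicate 3 of 91 DAP, where chalcone synthase deviated most (0.89), JrANR deviated by only 0.026, JrLDOX by -0.21 and JreChr13G10907 by -0.25. The 3 libraries of a stage are bound by their mean, so these counts and correlations are a description and no test was made.

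**Figure D3:**
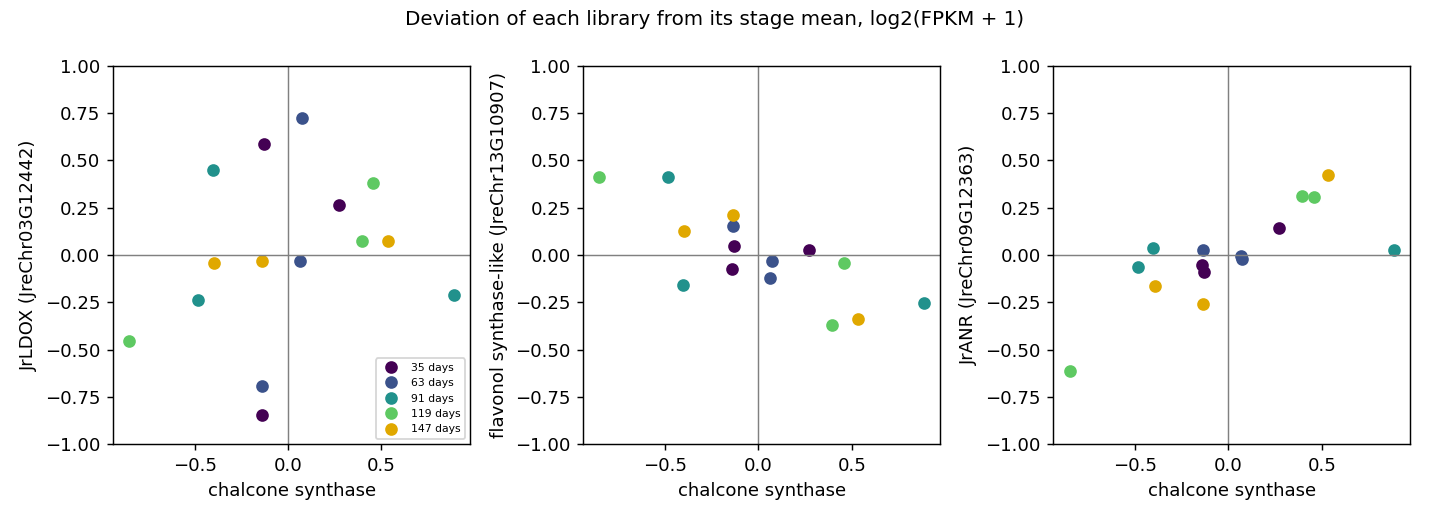
Deviation of each library from the mean of its stage, as log2(FPKM + 1), for chalcone synthase (x axis) against JrLDOX, JreChr13G10907 and JrANR (y axes); each point is 1 of 15 libraries, coloured by stage. In the middle panel only 3 points share a sign, in the outer panels 11 each. The correlation was 0.23 for JrLDOX, -0.77 for JreChr13G10907 and 0.76 for JrANR.

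Other annotated flavonoid genes were described from a list of 11, of which 6 passed the expression filter. The list was not a search of the whole genome, and other copies of these enzymes were not looked for. At 147 against 35 DAP, 5 of these 6 were higher, none was lower and 1 did not pass, where 24% of all tested genes were called higher and 43.7% lower. The 6 had a median log2 change of 1.76 against -0.27 over all tested genes. JrANR rose 10.7-fold, from 75.7 to 808 FPKM (log2 change 3.37 ± 0.22, adjusted p = 5.91e-09). Of the pair annotated as dihydroflavonol reductase, which would act between chalcone synthase and LDOX, JreChr11G10846 rose from 9.08 to 65.3 FPKM and JreChr11G10794 from 1.87 to 13.3. Their log2 changes were 2.69 ± 0.19 and 2.32 ± 0.32. Neither of that pair shared the fall of chalcone synthase from 63 to 91 DAP as a call (-0.11, adjusted p = 0.737, and -0.61, adjusted p = 0.18), whereas JrANR did (-0.82, adjusted p = 0.0131). The test of the difference between these falls was not made.

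Glucosyltransferases add sugar to anthocyanins. The 2 tested genes whose listed homolog is the Arabidopsis anthocyanin 5-O-glucosyltransferase, JreChr02G10229 and JreChr02G10232, rose by 1.20 and 0.80 from 35 to 147 DAP. JreChr02G10232 had its highest mean, 3.28 FPKM, at 63 DAP and was lower again at 147 DAP (-0.60 against 63 DAP, adjusted p = 0.00401). JreChr15G10826, an anthocyanin 3-O-glucosyltransferase, was the gene that did not pass, at -0.33 (adjusted p = 0.0894). The 5 untested genes had no library above 1.18 FPKM. Among them was JreChr12G10773, annotated as the flavanone hydroxylase that acts between chalcone synthase and the dihydroflavonols, which was listed at 0 in 13 libraries. JreChr13G10907, whose annotation also names flavanone 3-hydroxylase, was at or above 4.54 FPKM in all 15 libraries. Since other copies were not looked for, the low level of JreChr12G10773 does not show that the step is silent.

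**Figure D4:**
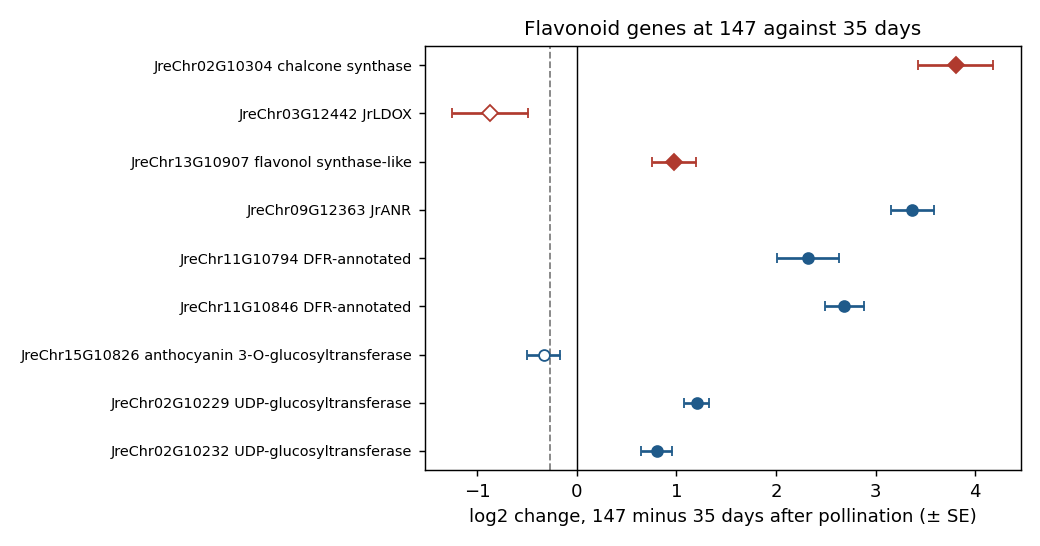
Change in log2(FPKM + 1) from 35 to 147 DAP (x axis, whiskers ± SE from limma, n = 3 per stage) of the 3 tested genes described here (red diamonds) and 6 tested list genes (blue circles); filled symbols passed the adjusted threshold, open ones did not, and the dashed line is the median of all tested genes, -0.27. Chalcone synthase at 3.80 and JrANR at 3.37 lie farthest right, JrLDOX at -0.87 farthest left.

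Other dioxygenase-annotated genes in the supplementary annotation of the study varied in direction. Of 8 such genes 4 were tested, and at 147 against 35 DAP 3 were higher and 1 was lower, where 24% of all tested genes were called higher and 43.7% lower. JreChr02G10901, an aminocyclopropane-carboxylate oxidase homolog, rose from 0.918 to 4.85 FPKM, and the gibberellin oxidase gene JreChr13G10514 fell from 25.4 to 16.3 FPKM. Of 8 MYB genes listed for homology to Arabidopsis MYB3 and MYB4, known there as repressors of phenylpropanoid genes, none reached the filter. JreChr03G11815, JreChr03G11816, JreChr03G11818 and JreChr03G11824 had means of 0.323, 0.233, 0.242 and 0.164 FPKM at 35 DAP, lower means of 0.0379 to 0.0535 at 63 DAP, and were listed at 0 in all libraries of the later stages. JreChr03G11815 and JreChr03G11816 overlap, so their reads may not be separate. The other 4 were listed at 0 in all 15 libraries.

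Finally, the tested genes most like each member over the 15 libraries were named by Pearson correlation of log2(FPKM + 1), as a description, since all points share the same libraries and stages. For chalcone synthase these were JreChr02G11537 (r = 0.973), JreChr02G11831 (0.971) and JreChr10G12128 (0.967). All 3 had the dip at 91 DAP, which their choice by correlation favours. JreChr02G11537 had stage means of 24.2, 82.9, 28.6, 109 and 324 FPKM in order of age. In all, 104 of 22309 other tested genes, 0.466%, reached 0.9 with chalcone synthase, and JrANR stood at 0.956. For JreChr13G10907 the nearest were JreChr07G11521 (0.963), JreChr11G11902 (0.955) and JreChr07G11522 (0.950), and 57 genes reached 0.9. JreChr07G11521 had means of 24.1, 6.82, 20.1, 30.5 and 90.1 FPKM, with the same low point at 63 DAP, likewise favoured by the choice. For JrLDOX no gene reached 0.9, and the nearest were JreChr05G11284 (0.864), JreChr09G10889 (0.847) and JreChr13G11904 (0.836). Immediately beside chalcone synthase, JreChr02G10303 did not share its course, with 1.48 FPKM at 35 DAP, 3.44 at 63 DAP and 0.628 at 147 DAP, and JreChr02G10305 was listed at 0 throughout.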

How the data were processed

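Endopleura RNA of 15 libraries was sequenced on an Illumina NovaSeq. The authors mapped the reads with HISAT2 2.1.0 to a J. regia assembly of theirs and quantified genes with StringTie 1.3.5. The deposited values are FPKM per gene and library. Read totals are unknown, and how reads shared between similar gene copies were assigned is not given in the sources used here. A gene entered the test if 3 or more libraries reached 1 FPKM. The test was limma 3.58.1 (R 4.3.3) on log2(FPKM + 1), with 1 coefficient per stage, a mean-variance trend and Benjamini-Hochberg adjustment over 22310 genes at 0.05. Fold changes on this scale understate those of low genes. Differences within libraries were tested by exact permutation (Python 3.11.15). Named were the 5 genes, the listed genes, adjacent genes and the 3 most correlated genes. The genes and lists were chosen with earlier results of these data known. The code was tested on simulated data. None of the 39414 identifiers matched the RefSeq gene table, so no sequences are shown. Alternatives covered the pseudocount, scaling, filter, variance trend, replicate block, stages fitted, an embryo covariate and each library left out.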

Additional observations from a re-analysis of the deposited data

How the results depend on the processing

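The stage F test called 2 of the 5 genes under most alternatives and 3 without a filter on low values, where JreChr13G10908 passed (adjusted p = 0.0161), and without replicate 3 of 35 DAP or replicate 1 of 63 DAP. Chalcone synthase kept its rise from 35 to 147 DAP throughout (3.52 to 6.20 on the log2 scale). With quantile normalization JreChr13G10907 missed the threshold from 35 to 63 DAP (-0.52) and passed from 63 to 91 DAP (0.74). With median-ratio scaling the first was -0.60 and missed it, and chalcone synthase passed from 119 to 147 DAP (1.01). Rescaled to equal sums, JrLDOX passed from 35 to 147 DAP (-1.12), as it did with only these stages fitted (-0.87), whereas JreChr13G10907 missed the threshold from 119 to 147 DAP with only those stages (0.82).

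With the embryo storage score as a covariate, which is low only at 35 DAP and so nearly coincides with that stage, JreChr13G10907 turned from 0.98 to -0.59 at 147 against 35 DAP (SE 0.76, adjusted p = 0.623). JrLDOX, which was not called, also changed sign against 35 DAP, to 0.75 at 63, 0.38 at 91, 0.36 at 119 and 0.10 at 147 DAP, none of which passed. Chalcone synthase then missed the threshold from 35 to 63 DAP (4.46) and from 63 to 91 DAP (-1.04), and JreChr13G10907 from 35 to 63 DAP (-2.39).

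With each library left out in turn, the change of JreChr13G10907 from 35 to 63 DAP ranged from -0.72 to -0.58 and that of JrLDOX from 35 to 147 DAP from -1.29 to -0.58. That of chalcone synthase ranged from -1.85 to -1.17 between 63 and 91 DAP and from 0.47 to 1.13 between 119 and 147 DAP. The change of chalcone synthase minus JrANR ranged from 0.37 to 0.55. In each of these a left-out library moved the call across the threshold. The cause of the changes under other scalings was not tested.

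Replicate numbers showed no steady pairing of the samples. Of 30 pairs of same-numbered libraries from different stages, 10 correlated above 0.1 in their deviations. The median was -0.026 and the range -0.40 to 0.41. With the replicate block, the chalcone synthase change from 35 to 147 DAP stayed at 3.80, no main call of the 3 genes changed, JrLDOX passed from 35 to 119 DAP (-0.92, adjusted p = 0.0473), and 6 instead of 5 genes of the flavonoid list passed the F test. Depth limits JreChr03G12444 and JreChr13G10908, for which FPKM under 1 may rest on few reads.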
